A study of Mus musculus with 6 samples.

Results

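The 10 Krüppel-like factor genes described here, Klf2, Klf3, Klf4, Klf5, Klf6, Klf7, Klf10, Klf11, Klf13 and Klf15, were taken by gene symbol from a table of 23358 genes, and all 10 were abundant enough to test. RNA was sequenced from mouse calvaria, the roof of the skull, at 2 to 3 days of age. The bones had been digested for 20 minutes in collagenase type II (2 mg/ml) and trypsin (0.005%) and then frozen. There were 3 libraries of an Ezh2 conditional knockout (cKO 8, cKO 10 and cKO 37) and 3 of wild type (WT 14, WT 27 and WT 29), numbered as in their labels. Ezh2 is the methyltransferase of the Polycomb repressive complex PRC2. Osx, which stands in both group names, is osterix, now called Sp7, and its promoter is widely used to drive Cre in osteoblast precursors. The labels spell out neither the driver, nor the deleted exons, nor the alleles of the wild-type animals. Cells of the calvaria outside the osteoblast lineage would keep Ezh2 under such a driver.

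Krüppel-like factors are zinc finger proteins that bind GC boxes and CACCC boxes in gene promoters and enhancers, as do the related Sp factors. The family divides by the partners that its members recruit: Klf2, Klf4, Klf5, Klf6 and Klf7 belong with activators that can bind acetyltransferases, Klf3 recruits the corepressor CtBP, and Klf10, Klf11 and Klf13 recruit the corepressor Sin3A. In bone, Klf4 is known as a restraint on osteoblast maturation, Klf10 was first described as a TGFβ-inducible early gene of osteoblasts, and Klf2 is known from endothelium and from bone-resorbing and bone-forming cells. Several of these genes are induced within minutes to hours by serum, growth factors, shear or stress.

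The gene counts summed to between 60449016 and 95439578 per library, and libraries of the same group differed by far more than counting noise. Whether each library is its own animal is not stated, and the p-values therefore reflect variation among 6 libraries that may be partly technical. Ezh2 itself had 20.4 to 21.7 CPM (counts scaled to library size) in WT and 19.2 to 20.6 in cKO (adjusted p = 0.507 by the edgeR quasi-likelihood test with Benjamini-Hochberg adjustment over 16089 genes, used throughout). Because the deleted exons are not named and counts span the gene, this level is no check of the genotype labels. The library cKO 37 was most often the extreme one: it was the highest of the 6 in 20.2% and the lowest in 20.5% of all tested genes. The other 5 had 14.5% to 17.7% and 13.7% to 17.8%. Other measures set it apart less. Its mean correlation with its own group was 0.9895, against 0.9904 to 0.9917 for the others. The chi-square per degree of freedom was highest for WT 14 with WT 27 (60). It was 50.7 for cKO 37 with cKO 8 and 44.3 for cKO 37 with cKO 10. Results that rest on cKO 37 are given with and without it.

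The promoters of the 3 members that fell and of Klf3, which did not, are shown for comparison of the elements that Krüppel-like factors bind. Each line gives the 250 bases before the RefSeq start of the gene (GRCm38.p6, the patch series of mm10) from 5′ to 3′ on the strand of the gene. Capitals mark matches to 3 elements, searched on both strands: the GC box, whose letters are GGGCGG, the CACCC element of globin and other promoters, searched as CCCACCC, and the MEF2 site. The windows are chr8:72318812-72319061 on the plus strand for Klf2, chr4:55532476-55532725 on the minus strand for Klf4, chr13:5861239-5861488 on the plus strand for Klf6 and chr5:64803271-64803520 on the plus strand for Klf3.
Klf2: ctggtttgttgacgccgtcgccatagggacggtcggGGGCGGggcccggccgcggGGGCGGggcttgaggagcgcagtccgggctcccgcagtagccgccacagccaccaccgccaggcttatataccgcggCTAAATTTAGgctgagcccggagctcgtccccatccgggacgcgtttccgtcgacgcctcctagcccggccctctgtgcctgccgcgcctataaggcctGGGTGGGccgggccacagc
Klf4: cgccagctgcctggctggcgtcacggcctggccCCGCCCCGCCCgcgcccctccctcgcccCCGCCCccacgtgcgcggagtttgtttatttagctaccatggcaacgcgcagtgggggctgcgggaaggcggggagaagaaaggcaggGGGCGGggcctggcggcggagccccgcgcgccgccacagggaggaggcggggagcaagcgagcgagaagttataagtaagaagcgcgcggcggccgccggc
Klf6: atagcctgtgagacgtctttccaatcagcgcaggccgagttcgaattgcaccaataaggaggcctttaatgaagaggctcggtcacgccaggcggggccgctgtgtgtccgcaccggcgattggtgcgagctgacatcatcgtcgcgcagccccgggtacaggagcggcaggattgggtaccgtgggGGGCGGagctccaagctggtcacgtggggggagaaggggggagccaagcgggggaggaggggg
Klf3: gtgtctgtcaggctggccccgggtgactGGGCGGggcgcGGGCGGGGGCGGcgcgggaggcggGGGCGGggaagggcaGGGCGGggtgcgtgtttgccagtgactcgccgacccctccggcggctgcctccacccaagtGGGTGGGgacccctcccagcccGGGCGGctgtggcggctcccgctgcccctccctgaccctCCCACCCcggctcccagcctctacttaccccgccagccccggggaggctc

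Among the 10 members, 8 had such a window, and all 8 held a GC box, which 32.7% of 32851 promoter windows of the same length held. Klf3 had 6 GC boxes, Klf4 had 4, of which the first pair shares a base, Klf2 had 2 and Klf6 had 1. A CACCC box was found in 4 of 8 windows (15.8% of all windows), including 1 match in Klf2, 19 to 13 bases before the start, and 2 in Klf3. The E-box CACGTG was found in 4 of 8 (6.02% of all), Klf4 and Klf6 among them, and the CCAAT box in 4 of 8 (33.8% of all). The MEF2 site was found in 1 of 8, the Klf2 promoter, where CTAAATTTAG lies 118 to 109 bases before the start (2.92% of all windows). No window of a member held the cAMP response element TGACGTCA (1.55% of all), the AP-1 site TGANTCA (6.75%), the CArG box (1.47%) or TATAAA (12.4%). The members' windows were rich in G and C, at 59.2% to 78.4% against a median of 52.4% over all windows, and their observed-to-expected CpG ratio was 0.599 to 1.15 against a median of 0.373. These matches are letters in a window and do not show that a factor bound there. Since all 8 windows held a GC box, its presence cannot separate members that fell from members that did not pass. The shares over all windows were not matched for G and C content.

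Of the 10 members, 3 fell in cKO, 0 rose and 7 did not pass. Klf4, Klf2 and Klf6 were the 3 that fell, by 36.8%, 32.2% and 23.8%. They are of the activating subgroup, but Klf5 and Klf7 of that subgroup did not pass. Klf16, a Sin3A-binding gene outside the 10, also fell. Of all tested genes, 6.45% were lower and 5.96% higher at this threshold. By unadjusted p under 0.05, 6 members were lower and 0 higher (14.6% and 14.5% of all genes), and DESeq2 and limma voom also called 0 higher. In 6 members all cKO libraries lay below all WT libraries, as in 17.4% of all genes, and in 0 members all lay above (17.2% of all genes). The median log2 fold change, given as cKO over WT, was -0.21 over the 10 members and 0.01 over all tested genes. The members were chosen with earlier results of these data known. These counts and this median therefore describe the 10 genes and are no test of the family. The summed CPM of the 10 members was 627.9 to 693.9 in WT and 481.7 to 498.7 in cKO. Without cKO 37, 4 members were lower and 0 higher (6.48% and 5.73% of all genes), Klf10 being the fourth. Since calvaria were profiled in bulk, fewer cells that express a gene and less of its RNA per cell cannot be told apart.

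**Figure D1:**
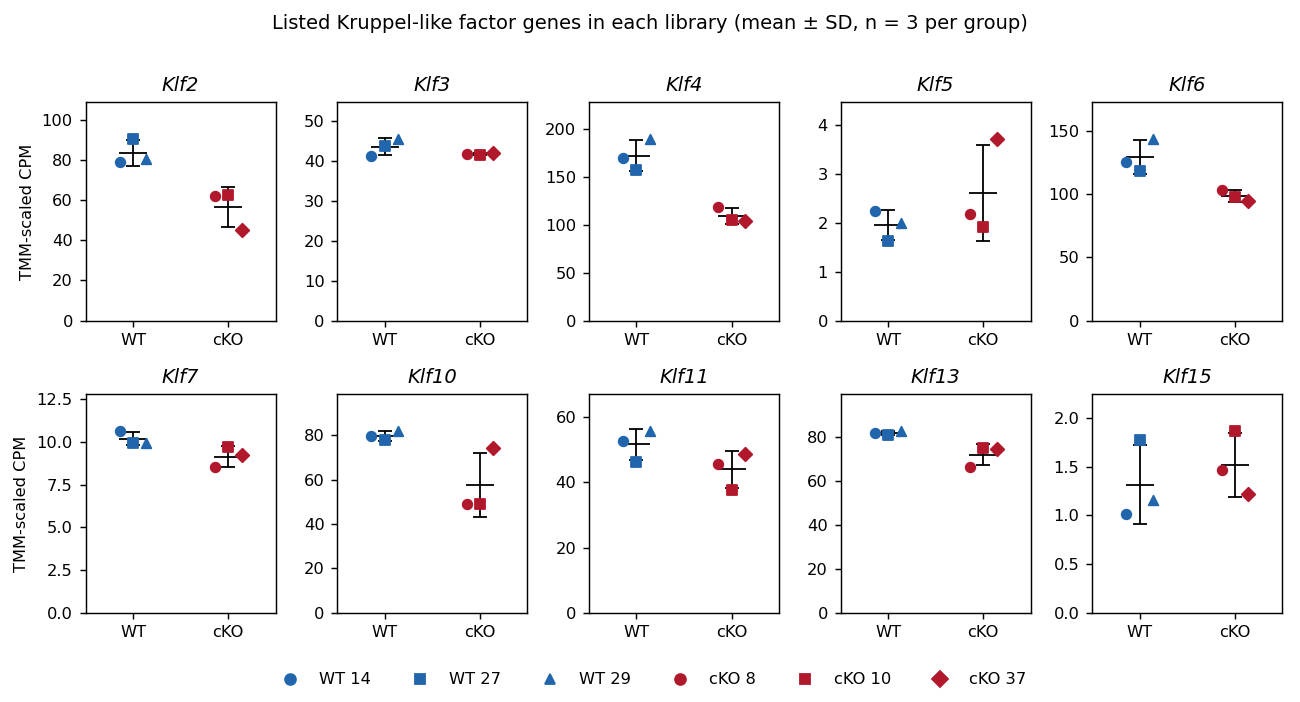
CPM (vertical axis, from 0) of each of the 10 members in the 6 libraries, as points, with the mean ± SD of each group. In Klf4, Klf2 and Klf6 every cKO library lies below every WT library, while in Klf10 the cKO 37 library, at 74.1 CPM, lies near the WT values.

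Klf4 (chromosome 4, 55527137 to 55532475, mm10), a pluripotency and differentiation factor, was the most abundant member per length and had the largest fall of the 3 that passed. Without cKO 37, the log2 fold change was -0.63 for Klf4 and -0.70 for Klf10. It had 169.7, 157 and 189.9 CPM in WT 14, WT 27 and WT 29 and 118.5, 104.5 and 103.4 CPM in cKO 8, cKO 10 and cKO 37. The highest cKO library stood well below the lowest WT library. The means were 172 ± 16.6 and 109 ± 8.44 CPM (SD, n = 3 each), a log2 fold change of -0.66 ± 0.08 (standard error) with a 95% confidence interval of -0.84 to -0.48 (edgeR adjusted p = 0.00164). It passed under each of the 16 alternatives run, and was the one member that also passed a test against a fold change of 1.2 (edgeR glmTreat adjusted p = 0.0205). Leaving out each library in turn gave log2 fold changes of -0.73 to -0.59.

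Klf2 (chromosome 8, 72319062 to 72321654), a shear-responsive factor of endothelium that also acts in immune and bone cells, had 79, 90.6 and 80.7 CPM in WT 14, WT 27 and WT 29. It had 62.1, 62.5 and 45.4 CPM in cKO 8, cKO 10 and cKO 37. The groups did not overlap, and cKO 37 was the lowest, apart from the other cKO libraries, which were nearly equal. The log2 fold change was -0.56 ± 0.12 (95% confidence interval -0.85 to -0.27, edgeR adjusted p = 0.0276). This call depended on single libraries: the edgeR adjusted p was 0.0556 without WT 14, 0.0737 without WT 27, 0.0711 without WT 29 and 0.0534 without cKO 8, and it passed without cKO 10 or cKO 37 (0.0065 without cKO 37). The log2 fold change stayed between -0.64 and -0.43 in these fits.

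Klf6 (chromosome 13, 5861489 to 5870393), a widely expressed factor of growth control and wound responses, had 125, 118 and 144 CPM in WT 14, WT 27 and WT 29 against 103, 97.7 and 94.2 CPM in cKO 8, cKO 10 and cKO 37. The cKO values lay close together and below all WT values. The log2 fold change was -0.39 ± 0.08 (95% confidence interval -0.56 to -0.22, edgeR adjusted p = 0.01), and it passed with each library left out (adjusted p = 0.0122 to 0.0434). It missed the glmTreat threshold for a fold change above 1.2 (adjusted p = 0.35).

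The other activating members did not pass. Klf7 (chromosome 1, 64035671 to 64121389), known from neurons and fat cell precursors, had 9.96 to 10.7 CPM in WT and 8.51 to 9.7 CPM in cKO (log2 -0.16 ± 0.09, edgeR adjusted p = 0.299). Its groups were separate, but by less than the spread within them. Klf5 (chromosome 14, 99298691 to 99313409), a factor of proliferating epithelium and of smooth muscle, was scarce. It had 2.24, 1.63 and 2 CPM in WT 14, WT 27 and WT 29 and 2.17, 1.9 and 3.72 CPM in cKO 8, cKO 10 and cKO 37. Only cKO 37 lay above the WT range, so the log2 fold change of 0.41 ± 0.25 (edgeR adjusted p = 0.312) was 0.05 without it (adjusted p = 0.898).

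**Figure D2:**
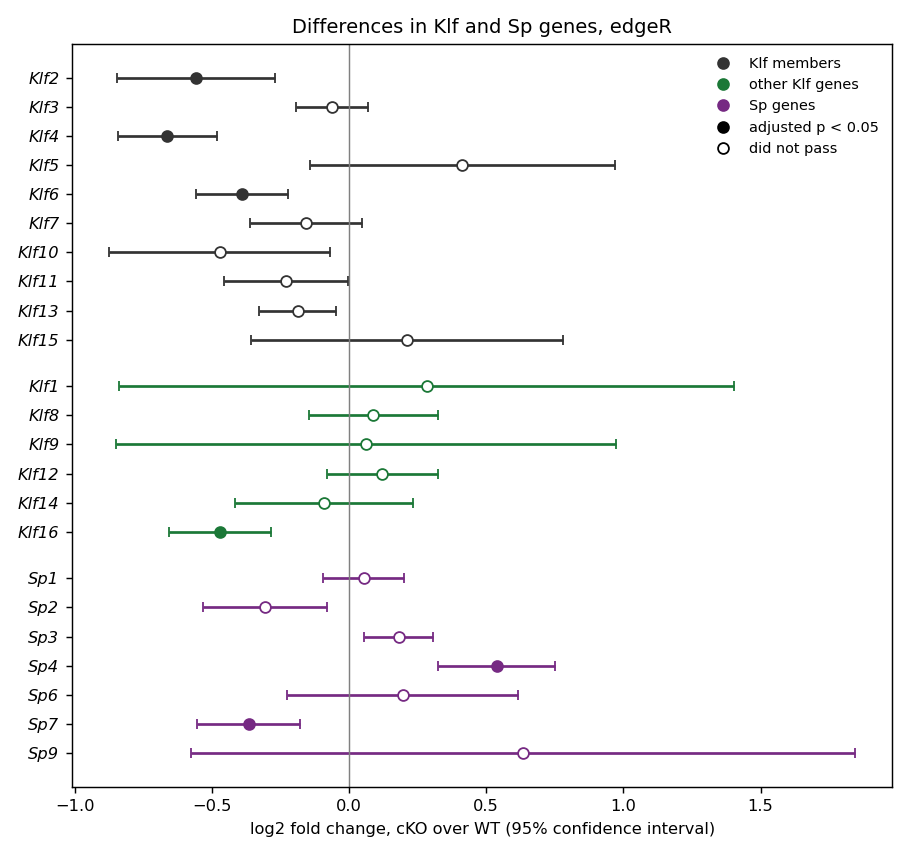
Log2 fold change (cKO over WT, horizontal axis) with its 95% confidence interval for the 10 members, 6 further Klf genes and 7 Sp genes, from the edgeR model. Filled points passed at an adjusted p of 0.05: Klf2, Klf4, Klf6, Klf16 and Sp7 lie below 0 and Sp4 above it.

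Of the members that recruit Sin3A, none passed. Klf10 (chromosome 15, 38294413 to 38300707), the TGFβ-inducible early gene, had 79.4, 77.6 and 82 CPM in WT 14, WT 27 and WT 29 and 49.1, 49.1 and 74.1 CPM in cKO 8, cKO 10 and cKO 37. All cKO values were below all WT values, but cKO 37 was much nearer to WT than to the other cKO libraries. The log2 fold change was -0.47 ± 0.17 (95% confidence interval -0.87 to -0.07, edgeR adjusted p = 0.12). Without cKO 37 it was -0.70 (edgeR adjusted p = 0.000821), and DESeq2 on all 6 libraries gave an adjusted p of 0.00433, whereas limma voom gave 0.0501.

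Klf11 (chromosome 12, 24651371 to 24662782), a TGFβ-inducible relative of Klf10 and a repressor of Smad7, had 52.6, 46.4 and 55.8 CPM in WT 14, WT 27 and WT 29 and 45.5, 37.8 and 48.8 CPM in cKO 8, cKO 10 and cKO 37. The groups overlapped, and within cKO the highest value was again that of cKO 37 (log2 -0.23 ± 0.10, edgeR adjusted p = 0.166). Klf13 (chromosome 7, 63886351 to 63938915), known as an activator of Ccl5 in T cells, had 82.1, 81 and 83.1 CPM in WT 14, WT 27 and WT 29 and 66.4, 75.3 and 74.5 CPM in cKO 8, cKO 10 and cKO 37. The WT values were almost equal and all cKO values lay below them, with a log2 fold change of -0.19 ± 0.06 (edgeR adjusted p = 0.0766) that passed only at an adjusted p of 0.1. The use of strand in the counting is not given in the sources used here, and GENCODE places genes on the opposite strand over 3 members: Gm20033 over Klf3, Gm26649 and Gm13748 over Klf7, and Gm27252 and E030018B13Rik over Klf13. The overlap is of whole gene spans, and whether reads of such pairs were kept apart is not known. E030018B13Rik had counts of 14 to 62 per library against 3980 to 7638 for Klf13.

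Klf3 (chromosome 5, 64803523 to 64830129), the CtBP-recruiting repressor known from red cells, B cells and fat, had nearly equal values in the 3 cKO libraries. It had 41.4, 43.8 and 45.7 CPM in WT 14, WT 27 and WT 29 and 41.8, 41.6 and 42.1 CPM in cKO 8, cKO 10 and cKO 37. The groups overlapped, and the 95% confidence interval of its log2 fold change of -0.06 was -0.19 to 0.07 (edgeR adjusted p = 0.54). Klf15 (chromosome 6, 90462626 to 90475209), a glucocorticoid-induced factor of muscle, liver and fat metabolism, was the scarcest member, at 1.01 to 1.78 CPM in WT and 1.22 to 1.87 CPM in cKO. Its interval of -0.36 to 0.78 on the log2 scale leaves a difference in either direction possible (edgeR adjusted p = 0.632).

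**Figure D3:**
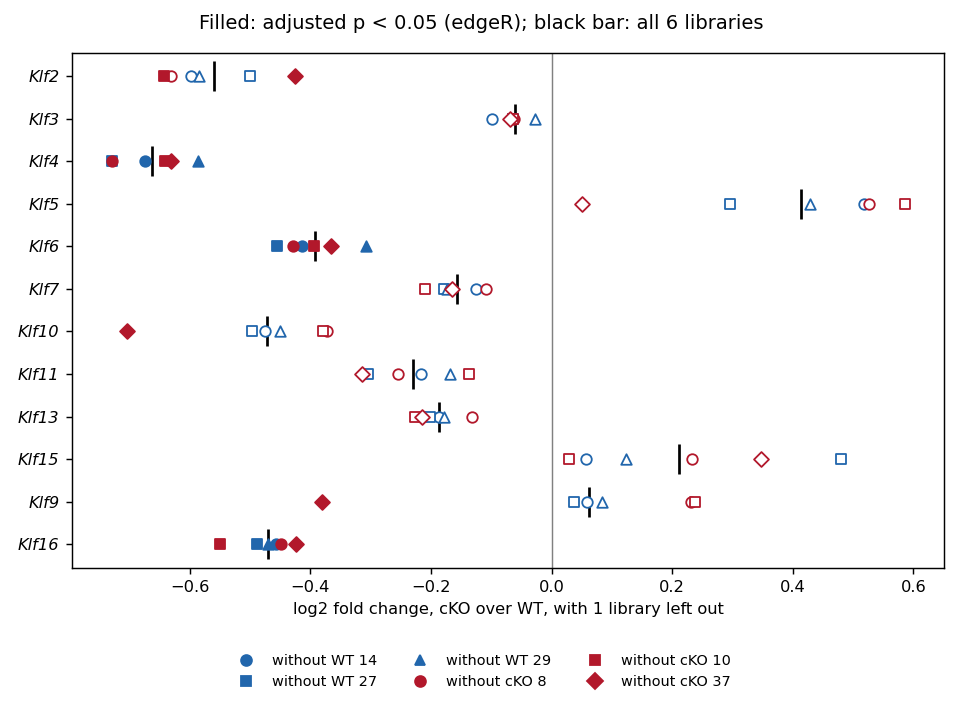
Log2 fold change (cKO over WT, horizontal axis) of each member, Klf9 and Klf16 with all 6 libraries (black bar) and with each library left out in turn (points, filled where the edgeR adjusted p was below 0.05). The values of Klf4 stay between -0.73 and -0.59, and the fit without cKO 37 moves Klf10 to -0.70 and Klf5 to 0.05.

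Per kilobase of the gene's length in the table, the members differed widely in level. The mean over the 6 libraries was 46.2 CPM per kb for Klf4, 38.6 for Klf2, 27 for Klf6, 22.5 for Klf10, 18.5 for Klf3, 12.1 for Klf13, 12 for Klf11, 7.24 for Klf7, 1.32 for Klf5 and 0.618 for Klf15. Within WT, neighbours in the order of all Klf genes were separate in every library except Klf13 with Klf11 and Klf5 with Klf14. Over all 6 libraries, the ranges of neighbours overlapped from Klf4 through Klf2, Klf6 and Klf10 to Klf3, while Klf3 did not overlap Klf13. The mean of Klf4 was 56.6 CPM per kb in WT and 35.7 in cKO, and that of Klf3 was 18.9 and 18.1. Such differences in CPM per kb grow with the level itself. Fold changes did not keep this order: the log2 fold change was -0.39 for Klf6 and -0.47 for Klf10, which follows it. Klf16, outside the 10 and below Klf7 in the order of all Klf genes, also fell (log2 -0.47). Among the 10, the 3 members that fell were the 3 with the highest level per length, which is a description of 10 genes.

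The libraries of cKO did not move the members alike. Against the WT mean, cKO 37 was at -0.88 for Klf2, -0.73 for Klf4 and -0.45 for Klf6 on the log2 scale, the lowest library in each. For Klf10 it was at -0.10 where cKO 8 and cKO 10 were both at -0.70, and for Klf5 at 0.94 where they were at 0.16 and -0.03.

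**Figure D4:**
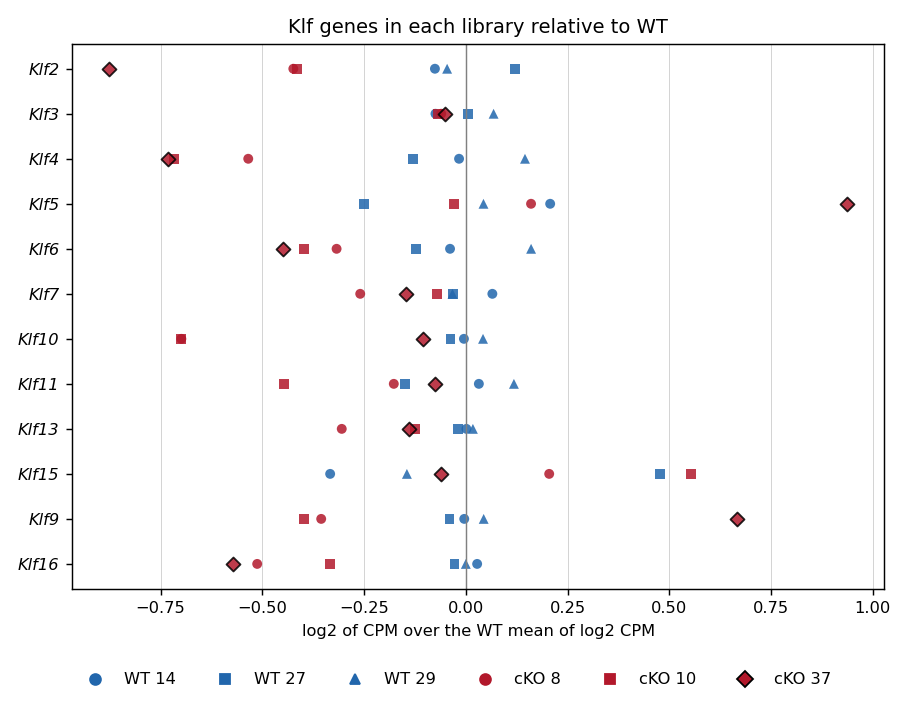
Log2 CPM of each library minus the WT mean (horizontal axis) for the 10 members, Klf9 and Klf16, with 1 point per library. The cKO 37 point of Klf2 is at -0.88 and that of Klf4 at -0.73, while that of Klf10 is at -0.10 and that of Klf9 lies above every WT point.

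Of 8 further Klf genes, 6 were tested, and 1 fell: Klf16, a Sin3A-binding repressor. It had 17.1, 16.5 and 16.8 CPM in WT 14, WT 27 and WT 29 and 11.8, 13.4 and 11.3 CPM in cKO 8, cKO 10 and cKO 37 (log2 -0.47 ± 0.08, edgeR adjusted p = 0.0076), and it passed with each library left out. Klf9, another of the Sin3A group and a glucocorticoid target, had 33.4, 32.5 and 34.5 CPM in WT 14, WT 27 and WT 29 and 26.1, 25.4 and 53.1 CPM in cKO 8, cKO 10 and cKO 37. The cKO 37 value was the highest of all and the other cKO values the lowest. Its log2 fold change was 0.06 ± 0.34 with all libraries (edgeR adjusted p = 0.927), which turned to -0.38 without cKO 37 (adjusted p = 0.00799), so that 2 of these genes were then lower, and was -0.01 with limma voom. Klf8 (0.09 ± 0.11), Klf12 (0.12 ± 0.09), both CtBP-binding repressors like Klf3, Klf14 (-0.09 ± 0.15) and Klf1 (0.28 ± 0.51), the erythroid factor, did not pass on the log2 scale (edgeR adjusted p = 0.425 to 0.76). Klf17 was too scarce to test.

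Of the 9 Sp genes, which bind the same GC boxes, 7 were tested. Sp4, a factor best known from neurons, rose from 7.98, 7.24 and 8 CPM in WT 14, WT 27 and WT 29 to 11.7, 10.4 and 11.6 CPM in cKO 8, cKO 10 and cKO 37 (log2 0.54 ± 0.10, edgeR adjusted p = 0.00751). All its cKO values were above all WT values. Sp7, the osteoblast factor, fell from 223 ± 26.9 to 173 ± 9.35 CPM (SD, n = 3 each, log2 -0.37 ± 0.09, edgeR adjusted p = 0.0211). Leaving out WT 29, cKO 8, cKO 10 or cKO 37 ended its call (edgeR adjusted p up to 0.0789), and in each of these fits 1 Sp gene passed. Sp3 (0.18 ± 0.06), Sp2 (-0.31 ± 0.10), Sp1 (0.05), Sp6 (0.20) and Sp9 (0.63 ± 0.55) did not pass (edgeR adjusted p = 0.0604 to 0.65), and Sp8 had a count of 0 in every library. The median log2 fold change was 0.07 over the further Klf genes and 0.18 over the Sp genes, against 0.01 over all tested genes. Of all tested genes, 6.45% fell and 5.96% rose.

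Of 14 genes for cofactors of these factors, 6 fell and 1 rose (median log2 -0.18), and with upper-quartile scaling 3 fell and 2 rose. Over all tested genes, 6.45% fell and 5.96% rose in the main fit. Kat2a, an acetyltransferase, fell from 43.9 ± 1.75 to 33.8 ± 1.6 CPM (SD, n = 3 each, log2 -0.38 ± 0.06, edgeR adjusted p = 0.00593). Parp1, a poly-ADP-ribose polymerase and transcriptional cofactor, fell by 0.35 on the log2 scale (edgeR adjusted p = 0.0076). Ctbp2, a corepressor recruited by Klf3, fell by 0.31 (adjusted p = 0.0173), and Sin3a, the corepressor of the Klf10 group, rose by 0.24 (adjusted p = 0.0184). The call of Ctbp2 needed each of WT 14, WT 29 and cKO 8, and that of Sin3a needed every library except cKO 37 (edgeR adjusted p up to 0.0779 and 0.0729 without them). The number of cofactor genes that changed was 3 without WT 14 or WT 27, 2 without WT 29 or cKO 8, 4 without cKO 10 and 6 without cKO 37.

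Among 15 genes for upstream regulators of these factors, 1 changed, also with DESeq2 and limma voom. The shares over all tested genes were 6.45% lower and 5.96% higher. Srf, the serum response factor, which drives early growth genes with its cofactors, had 61.5, 65.1 and 70.4 CPM in WT 14, WT 27 and WT 29 and 42.2, 48.1 and 38.5 CPM in cKO 8, cKO 10 and cKO 37. Its groups were far apart (log2 -0.61 ± 0.09, edgeR adjusted p = 0.00273), in each fit with a library left out as well. Map2k5, a kinase of the ERK5 pathway upstream of Klf2 and Klf4, Nr3c1, the glucocorticoid receptor, and Wwp1, a ubiquitin ligase of Klf proteins, did not pass (log2 -0.12, 0.10 and 0.10, edgeR adjusted p = 0.238 to 0.355).

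Of 22 tested genes known as targets of Krüppel-like factors, 3 rose, 3 fell and 16 did not pass (median log2 -0.06), and with upper-quartile scaling 3 rose and 1 fell. Over all tested genes, 5.96% rose and 6.45% fell in the main fit. Tnfrsf11b, osteoprotegerin, the decoy receptor for RANKL, rose from 14.4 ± 2.48 to 25 ± 3.17 CPM (SD, n = 3 each, log2 0.80 ± 0.13, edgeR adjusted p = 0.00832). Smad7, the inhibitory Smad repressed by Klf10 and Klf11, fell from 43.4 ± 2.99 to 33.6 ± 1.77 CPM (log2 -0.37 ± 0.07, adjusted p = 0.00867). Both passed with each library left out. Ccl5, the chemokine, rose from 0.786 ± 0.0387 to 1.42 ± 0.0515 CPM (log2 0.86 ± 0.21, edgeR adjusted p = 0.0236) but was lost without any 1 of the 6 libraries (adjusted p = 0.0508 to 0.0797). Vcam1, an adhesion molecule that Klf2 represses in endothelium, rose by 0.30 (edgeR adjusted p = 0.0316) and kept its call only when WT 14 was the library left out (adjusted p up to 0.124 in the other fits). These genes were named for their small p. Nos3, Thbd and S1pr1, on the same list, did not pass (log2 -0.06, -0.04 and 0.04, edgeR adjusted p = 0.768 to 0.77). The number of target genes that changed was 3 without WT 14, cKO 10 or cKO 37 and 2 without WT 27, WT 29 or cKO 8.

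Early response genes, induced like several Klf genes by serum and stress, were lower in cKO almost throughout. Of 20 tested, 18 fell and 0 rose, with a median log2 fold change of -0.74. Of all tested genes, 6.45% were lower and 5.96% higher. By unadjusted p under 0.05, 19 fell and 0 rose (14.6% and 14.5% of all genes). With DESeq2 19 changed and with limma voom 16. The list was written with earlier results of these data known. Atf3, a stress-induced factor, fell by 1.49 ± 0.12, Csrnp1, a nuclear protein, by 1.30 ± 0.11, Ier2 by 0.72 ± 0.06 and Jund, an AP-1 subunit, by 0.69 ± 0.07 on the log2 scale (edgeR adjusted p = 0.000764 to 0.00112). Their summed CPM was 4994 to 5668 in WT and 2706 to 3475 in cKO, and cKO 37 was the lowest library in 14 of 20, as in Klf2, Klf4 and Klf6.

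Of 12 glucocorticoid-responsive genes, 4 fell, 0 rose and 8 did not pass (median log2 0.06), against 6.45% lower and 5.96% higher over all genes. The list includes Klf9 and Nr3c1 and shares Dusp1 with the early response list. By unadjusted p under 0.05, 4 were lower and 1 higher (14.6% and 14.5% of all genes). With DESeq2 5 changed and with limma voom 4. Dusp1, a MAP kinase phosphatase, fell by 0.63 ± 0.08 and Sgk1, a kinase, by 0.39 ± 0.07 (edgeR adjusted p = 0.00164 and 0.0067). Fkbp5, a chaperone of the glucocorticoid receptor, fell by 0.27 and Cdkn1c, a cell cycle inhibitor, by 0.25 on the log2 scale (edgeR adjusted p = 0.0321 and 0.0466). With 1 library left out, Fkbp5 kept its call only without cKO 10 (adjusted p up to 0.126 in the other fits) and Cdkn1c in no fit (up to 0.143). Without WT 14, WT 27, WT 29 or cKO 8, 2 of these genes changed. The library cKO 37 was the highest in 6 of the 12. Chosen after their values were seen, Tsc22d3, the glucocorticoid-induced leucine zipper, had 121 CPM in cKO 37 and 44.5 to 58.4 in the other 5, and Per1, a clock gene, had 175 CPM against 73.2 to 103 in the other 5. Ddit4, a stress-induced inhibitor of mTORC1, had 91.8 CPM against 35.9 to 51.3. In Klf9, Klf5 and, among the cKO libraries, Klf10 and Klf11, the same library was the highest. In Klf15, also glucocorticoid-induced, it was the lowest cKO library, at 1.22 CPM against 1.47 in cKO 8 and 1.87 in cKO 10. Dusp1, Sgk1 and Fkbp5 lay below every WT library in cKO 37, at 107, 48.5 and 24.55 CPM. The part of this pattern of cKO 37 in the values of the Klf genes was not tested.

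**Figure D5:**
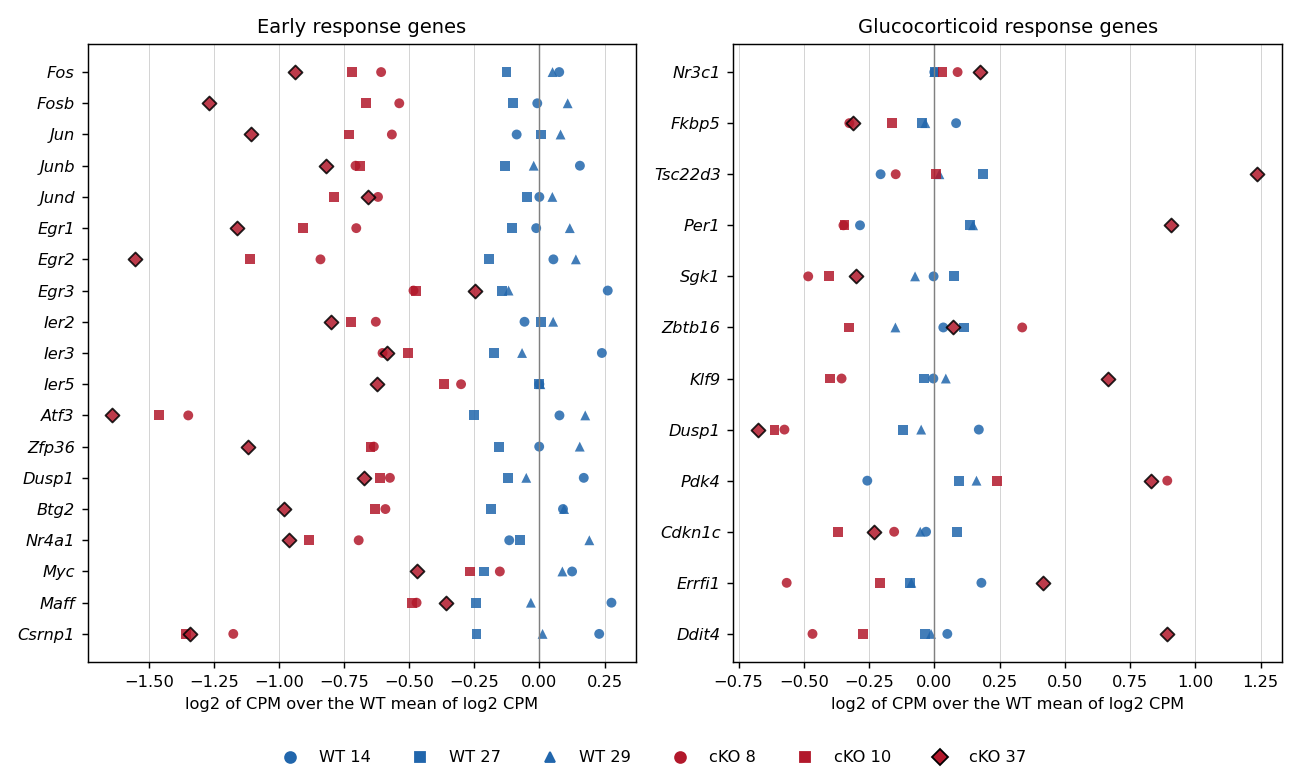
Log2 CPM of each library minus the WT mean (horizontal axis) for the early response genes other than Fosl1, which is scarce, and for the glucocorticoid-responsive genes, with 1 point per library. The cKO points of the early response genes lie to the left of the WT points in most genes, while in Tsc22d3, Per1, Ddit4 and Klf9 the cKO 37 point stands alone on the right.

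The libraries were rich in RNA of osteoblast markers, which fits the label of calvarial bone. These markers summed to 78800 to 107700 CPM in WT and 53610 to 75860 CPM in cKO, and 1 of 10 changed (Sp7, lower). Most of these sums was Col1a1, a collagen chain of bone matrix, at 71850 to 99700 CPM in WT and 44380 to 67860 CPM in cKO, which did not pass (edgeR adjusted p = 0.115). Without Col1a1 the markers summed to 6951 to 8591 CPM in WT and 8003 to 9224 CPM in cKO, with overlap, and 4 of 10 markers (Ibsp, Spp1, Dmp1 and Phex) had a positive log2 fold change. Endothelial markers, from cells rich in Klf2 and Klf4, summed to 720.8 to 815 and 740.8 to 905.4 CPM, with 1 of 10 lower (Cldn5, log2 -0.36, edgeR adjusted p = 0.0132). The highest sum was that of cKO 10, and the sums of cKO 8 and cKO 37 lay within the WT range. Macrophage and osteoclast markers summed to 2122 to 2807 and 1740 to 1976 CPM, without overlap, and 2 of 8 fell (Csf1r by 0.43 and Acp5 by 0.56 on the log2 scale, edgeR adjusted p = 0.0191 and 0.0172). Beside these marker counts, 6.45% of all tested genes were lower and 5.96% higher.

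Chondrocyte markers ranged from 2322 to 8522 CPM in WT and from 887.6 to 6670 in cKO, and cKO 37 was the lowest library in 7 of 8. Markers of other tissues that express Klf genes were scarce: keratinocyte markers summed to 5.79 to 6.79 and 4.81 to 6.16 CPM, skeletal muscle markers to 3.83 to 4.92 and 3.9 to 5.21, and adipocyte markers to 20.6 to 21.8 and 20.7 to 26.8, with Lep at 0 in every library. Erythroid markers summed to 8.12 to 13.9 and 8.8 to 13 CPM, lymphocyte and neutrophil markers to 2.95 to 3.12 and 1.42 to 2.94, and neural markers to 26.5 to 32.9 and 23.1 to 28.1 with Olig2 at 0. Of 6 tested neural markers, 1 fell (Tubb3, log2 -0.77, edgeR adjusted p = 0.0131) and 5 did not pass, against 6.45% lower over all tested genes. The part of the cell makeup in the values of the Klf genes was not tested.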

How the data were processed

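RNA-seq of 6 libraries of mouse calvaria was used, 3 per group, grouped by the genotype in the labels. The counts deposited by the authors are reads per gene, made with bcl2fastq, TopHat2 2.0.6 (mm10) and HTSeq, per the submitters' processing notes. The RPKM values that the authors deposited beside them served as a check of the counts. Within each library they matched the counts up to a single scale factor (largest relative error 5.11e-15). The library totals that they imply, 80605859 to 126338446, were above the summed gene counts in every library. Aligner parameters, gene annotation and strand setting are not given in the sources used. Every count is even (0 odd counts), so the fit was repeated on halved counts. The 69 entries that share an identifier were kept apart.

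Counts were tested in R 4.3.3 with edgeR 4.0.16 (filterByExpr with a minimum count of 10, TMM scaling, robust quasi-likelihood test, Benjamini-Hochberg adjustment over 16089 genes, threshold 0.05). The common biological coefficient of variation was 11.5%. The steps were tested on simulated data with a common variation for all genes. They recovered 62% of planted 1.5-fold and 84% of planted 2-fold changes, with 4 false calls among 15777 unchanged genes. Smaller changes can therefore be missed, and a gene that did not pass may still differ. Alternatives were RLE and upper-quartile scaling, other filters (none, or a mean CPM of at least 1), DESeq2 1.42.0, voom in limma 3.58.1, glmTreat, an adjusted p of 0.1, an offset for length and GC content (GENCODE vM21, known for 90.1% of tested genes and all 10 members) and omission of each library. Promoters are from RefSeq (GRCm38.p6). Named were all members, every tested gene of the other Klf and Sp lists and up to 4 genes of each other pathway list by smallest p. The members and lists were chosen with earlier results of these data known.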

Additional observations from a re-analysis of the deposited data

How the results depend on the processing

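Over 16 alternatives, 151 of 160 fits of the 10 members kept the call and direction, and 0 reversed. Klf10 gained a call with DESeq2 and without cKO 37, and Klf13 at an adjusted p of 0.1. Klf2 lost its call in 4 fits with a library left out, and Klf2 and Klf6 against a fold change of 1.2. Under that test 1 member was lower, and over all genes 62 were higher and 50 lower. It left 9 early response genes, 1 glucocorticoid-responsive gene and 0 further Klf, Sp, cofactor or target genes. At an adjusted p of 0.1, 1593 genes were higher, 1684 lower, and 4 Sp genes changed, as with DESeq2 (4). Leaving out 1 library gave 291 to 932 genes higher and 295 to 1053 lower, 2 to 4 members lower, 1 to 2 further Klf, 1 to 3 Sp, 2 to 6 cofactor, 2 to 3 target, 14 to 18 early response and 2 to 4 glucocorticoid-responsive genes changed. All genes fell to 291 higher and 295 lower without cKO 8. The share of calls that were higher was 48%, 60.9% with upper-quartile scaling (1191 higher, 764 lower) and 33.9% with the length and GC offset (748 higher, 1457 lower), under both of which Klf2, Klf4 and Klf6 were the members called lower.

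Log2 fold changes reversed with the length and GC offset for Klf8 (-0.013), Klf9 (-0.00555), Sp1 (-0.061), Nr3c1 (-0.025) and Wwp1 (-0.041), and with limma voom for Klf9 (-0.0081). With 1 library left out, Klf9 ranged from -0.38 to 0.24, Sp6 from -0.038 to 0.35, Tsc22d3 from -0.081 to 0.74, Per1 from -0.36 to 0.40 and Ddit4 from -0.37 (called lower) to 0.42, each lowest without cKO 37. Errfi1 ranged from -0.39 without cKO 37 to 0.13 without cKO 8 and was 0.03 without WT 14. The cause was not tested. No paired analysis was run, because the labels name no litters or pairs and the groups share no replicate numbers. Whether cKO and WT animals were littermates is not known. Klf5 and Klf15 had the lowest counts of the members, 74 to 286 per library, and the widest intervals.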
